A study of Dugesia japonica with 12 samples.

Results

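The pre-mRNA splicing genes of the freshwater planarian Dugesia japonica are followed here through 5 days of exposure to the herbicide glyphosate. A gene was taken as a splicing gene when the name of its best annotation hit or of its Swiss-Prot hit speaks of a splicing factor, a pre-mRNA-splicing or pre-mRNA-processing factor, a small nuclear ribonucleoprotein (snRNP), the spliceosome, a heterogeneous nuclear ribonucleoprotein (hnRNP) or a serine/arginine-rich (SR) protein. It also had to reach 1 TPM (transcript abundance scaled for transcript length and library size) in at least 3 of the 12 libraries. Of 155 genes whose names matched, 142 passed and 13 did not, and 0 had a Tetrahymena or Paramecium hit to be dropped. The 142 stand among 27329 genes that passed the same level filter and 30535 in the deposited table. At the edge of the filter, genes with exactly 2 libraries at 1 TPM had means over the 12 libraries of 0.305 to 0.677 TPM, and those with exactly 3 had means of 0.665 to 0.914 TPM.

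Whole worms of Dj-NH, a clonal strain kept in the laboratory by asexual reproduction, were held at 64 mg/L glyphosate, and polyadenylated RNA was sequenced after 1, 3 and 5 days and from untreated worms, with 3 libraries in each of the 4 groups. By the labels this concentration is a set fraction of the LC50, the concentration lethal to a fixed share of animals; no sampling day is given for the untreated worms, so exposure and time in the experiment cannot be told apart. Nothing says that the 3 libraries of a group come from separate cultures, and p-values then measure no more than the library-to-library spread, which may be technical. All 3 exposure times were compared with the same 3 control libraries.

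Splicing removes introns from newly made RNA. Each snRNP of the spliceosome is a small nuclear RNA wrapped by a ring of Sm proteins, or of LSm proteins in the case of U6. The U1 snRNP recognises the start of the intron, the U2 snRNP with its SF3A and SF3B complexes and the U2AF pair recognises the branch point and the end of the intron, and the U4/U6.U5 tri-snRNP then joins. The Prp19 complex and a series of RNA helicases activate the assembled machine and drive its catalytic steps, while SR proteins and hnRNPs bind the transcript and steer which sites are used. In the planarian Schmidtea mediterranea the Sm B protein is known to be needed for proliferation of neoblasts, the dividing stem cells from which planarians renew their tissues.

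The splicing genes were on the whole better expressed and longer than the assembly around them. Their control level had a median of 10.02 TPM (quartiles 2.67 and 29.2), against 2.36 TPM for all tested genes, and their median transcript length was 1110 bases against 488. Of the 142, 72 had a best hit in a flatworm and 15 of these in a planarian, 48 carried an annotated RRM (RNA recognition motif) domain and 23 an LSM domain. In control worms the highest level belonged to the Sm D3 gene at 221 ± 28.6 TPM (SD, n = 3), followed by HNRNPA1/A2B1 at 190 ± 21.0 TPM, an HNRNPK gene at 162 ± 29.8 TPM and Hnrnpab at 161 ± 29.7 TPM. These 4 neighbours in the order overlapped in their libraries, except that every library of Sm D3 was above every library of the last 2 named.

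A pair of libraries had the highest median-ratio factors: control replicate 1 at 1.30 and day 3 replicate 2 at 1.32. These factors came from the tested genes above zero in all 12 libraries. Day 1 replicate 2 followed at 1.18, and the remaining libraries ran from 0.842 to 1.00. Day 1 replicate 2 also came near the pair in genes at 1 TPM or more, with 23249 against 23164 and 23602. Library totals ran from 978610 to 986584 TPM, of which 2 transcripts took 36.0 to 55.5%. Splicing genes followed the library pattern: 57 of the 142 had their highest value in control replicate 1 and 42 in day 3 replicate 2. Sequencing depth is unknown because TPM keeps none.

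Splicing genes were lower in exposed worms, and the calls among them in the main analysis were falls. At day 5, 12 of the 142 fell and 0 rose at an adjusted p under 0.05 (limma, Benjamini-Hochberg over all tested genes), or 8.45% of the splicing genes, where 2.23% of all tested genes fell and 0.681% rose. At day 3, 8 fell and 0 rose (5.63%), against 1.19% and 0.428% of all tested genes. At day 1 limma called 0 in either direction, against 0.0476% lower and 0.0842% higher over all tested genes, with 14 splicing genes at an unadjusted p under 0.05, 12 of them lower, where 8.83% of all tested genes had one; quantile normalization and median-ratio scaling each called 2 at day 1, 1 higher and 1 lower. Among genes with a mean of at least 10 TPM, 9 of 66 splicing genes fell at day 5 and 7 at day 3, where 6.59% and 3.38% of all 4676 tested genes at that level fell. These counts rest on single libraries: leaving out control replicate 1 left 3 calls at day 5 and 0 at day 3. At day 5 there were 2 calls without day 5 replicate 1, 5 without day 5 replicate 3, and 7 without either day 5 replicate 2 or day 1 replicate 1. At day 3 there were 1 call without day 3 replicate 3 and 2 without day 3 replicate 1. Leaving out control replicate 2 or control replicate 3 left 3 at day 3. Of those without control replicate 2, 1 was a rise in a U2 and branch point gene, and that fit had 1 rise at day 5 too. The day 3 calls were 4 without day 1 replicate 1, day 5 replicate 2 or day 5 replicate 3, and 5 without day 1 replicate 3. In bulk RNA of whole worms, fewer cells of a type and less RNA per cell cannot be told apart.

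The median fitted log2 fold change of the 142, on the log2(TPM + 1) scale that understates the change of low genes, was -0.23 at day 1, -0.21 at day 3 and -0.32 at day 5. The same medians over all tested genes were -0.08, -0.06 and -0.09. Below zero stood 116, 105 and 118 of the splicing genes at the 3 times, or 81.7%, 73.9% and 83.1%, against 57.9%, 55.3% and 58.2% of all tested genes. Of the tested genes with an annotation hit, 67.8%, 56.5% and 61.8% stood below zero. Library scaling moved these medians: the median of all tested genes at day 5 became 0.01 under quantile normalization, 0.01 under median-ratio scaling and 0.03 with TPM rescaled once those 2 transcripts were left out, and at day 3 that rescaling gave 0.06. Relative to that shifting baseline the splicing genes stayed between -0.21 and -0.23 at day 5, between -0.13 and -0.15 at day 3 and between -0.13 and -0.16 at day 1 under the 4 scalings. Relative to tested genes with an annotation hit they stood between -0.20 and -0.21 at day 5, at -0.15 at day 3 and between -0.08 and -0.09 at day 1. Without control replicate 1 the day 3 median was -0.07, the day 1 median -0.09 and the day 5 median -0.20, and without day 3 replicate 2 the day 3 median was -0.40; leaving out day 3 replicate 1 or day 3 replicate 3 gave -0.12 and -0.13, and leaving out day 1 replicate 3 gave a day 1 median of -0.15.

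**Figure D1:**
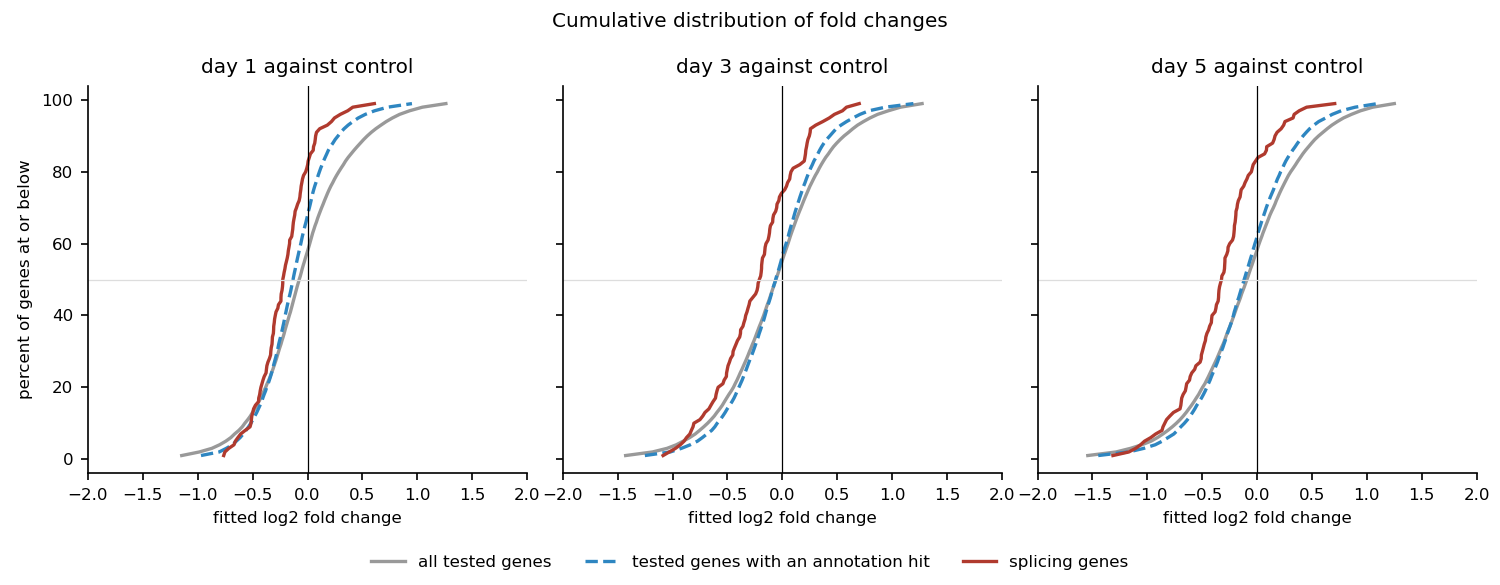
Cumulative share of genes (percent) at or below each fitted log2 fold change, for the 142 splicing genes (red), all 27329 tested genes (grey) and the 11901 tested genes with an annotation hit (blue, dashed), at each exposure time against control. The red curve lies left of the others through its middle part in all 3 panels, with medians of -0.23, -0.21 and -0.32.

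For 58 splicing genes all day 5 libraries lay below all control libraries. That is 40.8% of the 142, where 15.6% of all tested genes showed this. In the other direction 3 splicing genes were separated, against 7.7% of all. Of the 11901 tested genes with an annotation hit, 2439 were separated downward and 937 upward at day 5. At day 3 the groups were separated downward for 40 genes (28.2%, against 10.5%) and upward for 4 (against 5.66%), and at day 1 downward for 20 (14.1%, against 7.71%) and upward for 5 (against 5.65%).

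Set beside the tested genes with an annotation hit, the splicing genes were lower in all 9 exposed libraries. Their median difference from the control mean (log2 scale) was set against that of the hit genes, and the gap was -0.0995 to -0.053 in the day 1 libraries, -0.188 to -0.124 in the day 3 libraries and -0.279 to -0.171 in the day 5 libraries. In the 3 control libraries the gap was -0.002 to 0.012. The control mean is made from these same 3 libraries, so their gap is no independent measure of library spread. All 9 exposed gaps share that control mean. Control libraries summed to 3657 ± 457 TPM over the 142 genes, day 1 libraries to 3094 ± 339, day 3 libraries to 2919 ± 517 and day 5 libraries to 2684 ± 201 TPM (SD, n = 3). The day 3 libraries spread widest, since replicate 2 summed to 3516 TPM and the others to 2622 and 2619.

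**Figure D2:**
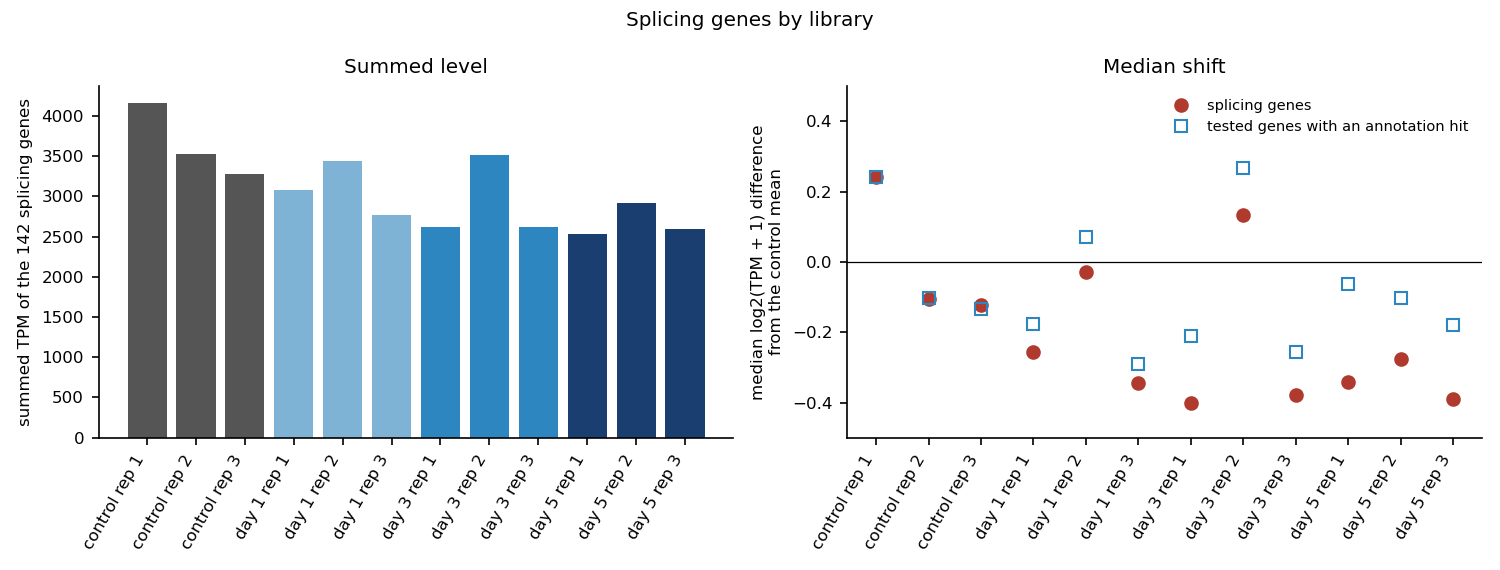
Left, summed TPM of the 142 splicing genes in each of the 12 libraries (bars start at 0). Right, median difference on the log2(TPM + 1) scale between each library and the control mean, for splicing genes (red circles) and for all tested genes with an annotation hit (blue squares); in each exposed library the red point lies below the blue one, and control replicate 1 and day 3 replicate 2 are high for both.

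By the role that the annotation names, the 23 Sm and LSm transcripts held 6 of the 12 falls at day 5 and 4 of the 8 at day 3, and the 16 hnRNP genes held 3 and 2. Over all tested genes 2.23% fell at day 5 and 1.19% at day 3. The SR proteins (12 genes) held 1 at day 5, the U2 and branch point group (31 genes) 1 at each time, and the U5 and tri-snRNP group (12 genes) 1 at each time. Limma called 0 of the 11 U1 genes, the 25 Prp19 complex and catalytic genes and the 12 remaining genes at any time. At day 5, 4 of these U1 genes, 3 of the catalytic genes and 0 of the remaining genes had an unadjusted p under 0.05, where 16.5% of all tested genes did, and single genes of the first 2 groups were called under some alternatives. No test compared one role with another. Class medians at day 5 ran from -0.65 for the Sm and LSm transcripts and -0.42 for SR proteins to -0.20 for the Prp19 complex and catalytic genes. Without control replicate 1 the day 5 medians were nearer zero, at -0.04 for the Prp19 group and for the remaining genes, -0.13 for hnRNPs, -0.19 for the tri-snRNP group, -0.21 for SR proteins and -0.22 for the U2 group, while the Sm and LSm median was -0.57. The Prp19 median was -0.04 and that of the remaining genes -0.18 without day 5 replicate 3, and the U1 median moved from -0.33 to -0.16 without control replicate 3. At day 3 the medians of the hnRNPs (-0.10), the Prp19 group (-0.08) and the remaining genes (-0.15) were near the baseline, and each turned positive without control replicate 1 (0.09, 0.05 and 0.06) or without day 3 replicate 1 (0.06, 0.01 and 0.01). The Prp19 group was also positive without day 3 replicate 3 (0.10) and under rescaling (0.03), and the hnRNPs under quantile normalization (0.01) and rescaling (0.04). The U1 median at day 1, -0.10, was 0.03 under median-ratio scaling and 0.01 without day 1 replicate 3.

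**Figure D3:**
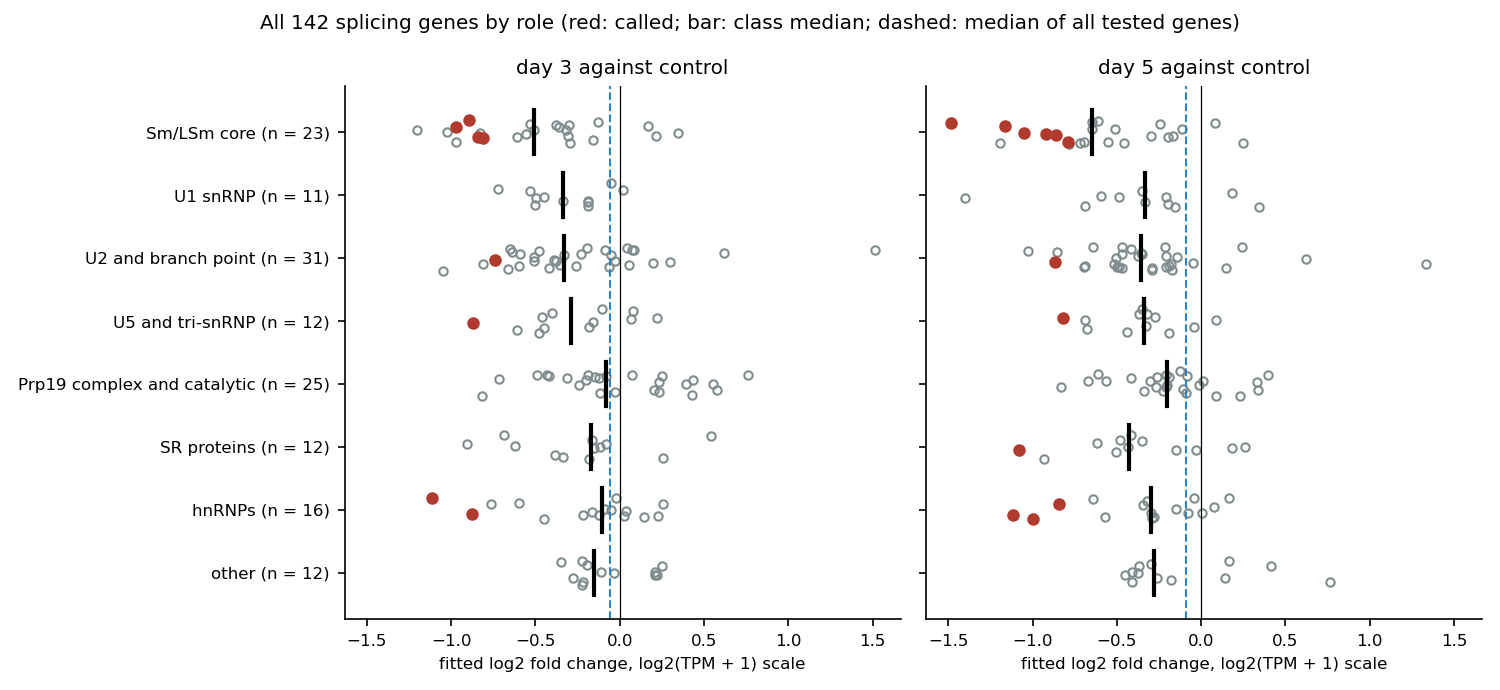
Fitted log2 fold change of each of the 142 splicing genes at day 3 and day 5 against control, by role. Red points are called (adjusted p under 0.05), open points are not, black bars are class medians and the dashed line is the median of all tested genes; all red points lie below zero, and 6 of the 12 at day 5 are Sm or LSm transcripts.

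The Sm ring was lower in all of its subunits. Each of its 7 subunits (B, D1, D2, D3, E, F and G) had 1 transcript carrying 87.7 to 100% of the subunit's summed TPM. Of these 7 transcripts 2, those of B and D2, had a best hit in a flatworm, and those of D1, D3 and F were among the ones without. The 7 had a median log2 fold change of -0.27 at day 1, -0.81 at day 3 and -0.79 at day 5. All 7 were below control at each of the 3 times under each of the 4 scalings and without control replicate 1. By limma 4 of the 7 fell at day 3 and the same 4 at day 5, namely B, D1, D2 and F. Over all tested genes 1.19% fell at day 3 and 2.23% at day 5. Among those with a mean of at least 10 TPM, as all 7 have, 3.38% and 6.59% fell. Without control replicate 1 the ring had 0 calls at day 3 and 1 at day 5; at day 3 it had 1 without control replicate 2, day 3 replicate 1 or day 3 replicate 3 and 2 without control replicate 3, and at day 5 it had 1 without day 5 replicate 1 and 2 without day 5 replicate 3. Processing moved the ring calls too. At day 3 there were 3 under quantile normalization, 1 under median-ratio scaling and 2 under rescaling. At day 5 these scalings gave 3, 2 and 2. Without the intensity trend there were 0 at day 3 and 1 at day 5, and with only the libraries compared 0 and 3. For the 7 together the control sum was 625 ± 75.2 TPM, the day 1 sum 507 ± 48.4, the day 3 sum 408 ± 20.4 and the day 5 sum 392 ± 54.4 TPM.

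Sm F (SNRPF, TRINITY_DN30537_c0_g2, 435 bases) stood at 88.3, 79.0 and 64.0 TPM in the control libraries. It measured 52.4, 53.7 and 43.9 TPM at day 1, 43.9, 31.4 and 41.3 TPM at day 3, and 36.4, 37.99 and 34.9 TPM at day 5. Every exposed library was below every control library, and the day 5 libraries lay closest together. Fitted log2 fold changes were -0.97 ± 0.19 (SE) at day 3 (limma adjusted p = 0.0156) and -1.05 ± 0.19 at day 5 (adjusted p = 0.00720). At day 5 the call held under all 22 alternatives that could be fitted for it, and at day 3 it was lost without control replicate 1 and under 4 other settings (adjusted p up to 0.111).

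Sm D2 (SNRPD2, TRINITY_DN37682_c4_g6, 450 bases) measured 73.8, 65.2 and 57.6 TPM in control, 45.1, 49.95 and 39.5 at day 1, 33.2, 40.5 and 30.8 at day 3, and 30.1, 38.4 and 33.8 at day 5. The control group did not overlap any exposed group. On the log2 scale the difference was -0.90 ± 0.19 at day 3 (limma adjusted p = 0.0235) and -0.92 ± 0.19 at day 5 (adjusted p = 0.0149). The day 5 call was lost without control replicate 1, day 5 replicate 1 or day 5 replicate 3 and without the intensity trend, with adjusted p up to 0.0802; the day 3 call was lost under 7 of 23 alternatives, among them leaving out control replicate 1 or 2 or day 3 replicate 1 or 3.

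Sm D1 (SNRPD1, TRINITY_DN33974_c5_g1, 1117 bases) had closely spaced control, day 1 and day 3 libraries. Control libraries measured 29.5, 30.2 and 29.4 TPM, day 1 libraries 23.8, 23.4 and 23.1, day 3 libraries 15.9, 15.9 and 16.7, and day 5 libraries 13.04, 17.97 and 17.2. The day 1 libraries lay between the control and the later libraries without overlap with either. The log2 fold change was -0.33 ± 0.18 at day 1 (limma adjusted p = 0.614), -0.84 ± 0.18 at day 3 (adjusted p = 0.0246) and -0.86 ± 0.18 at day 5 (adjusted p = 0.0164). The day 5 call was lost without control replicate 1 or day 5 replicate 1 and under 3 of the other settings, and the day 3 call under 10 of 22 alternatives, each control library and day 3 replicates 1 and 3 included.

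Sm B (SNRPB, TRINITY_DN36704_c0_g8, 629 bases), whose best hit is the SmB protein of Schmidtea mediterranea, measured 130.0, 138 and 102 TPM in control and 118, 108 and 102 TPM at day 1. At day 3 it measured 71.5, 56.6 and 82.4 TPM and at day 5 59.9, 79.0 and 73.1 TPM. Day 1 overlapped control, while day 3 and day 5 lay wholly below it. Fitted log2 fold changes were -0.81 ± 0.19 at day 3 (limma adjusted p = 0.0489) and -0.79 ± 0.19 at day 5 (adjusted p = 0.0401). Both calls were close to the threshold: the day 3 call held under 4 of 23 alternatives and was lost by leaving out any 1 of the 12 libraries, and the day 5 call held under 8 (adjusted p up to 0.240 and 0.192).

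The other 3 ring subunits were not called, and were named after their values were seen, to complete the ring, except that Sm D3 was also named by its level. Sm D3 (SNRPD3, TRINITY_DN37557_c1_g4, 355 bases), the most abundant splicing gene in control, measured 210, 253 and 199 TPM there and 133, 189 and 162 TPM at day 5, with a log2 fold change of -0.46 ± 0.20 (limma adjusted p = 0.269). Sm E (SNRPE, TRINITY_DN32163_c2_g1) went from 95.3 ± 17.95 to 64.2 ± 7.57 TPM (log2 fold change -0.55, adjusted p = 0.115). Sm G (SNRPG, TRINITY_DN37963_c4_g4) went from 13.3 ± 0.773 to 9.17 ± 2.02 TPM (log2 fold change -0.51, adjusted p = 0.252). All 3 had day 5 libraries wholly below control.

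**Figure D4:**
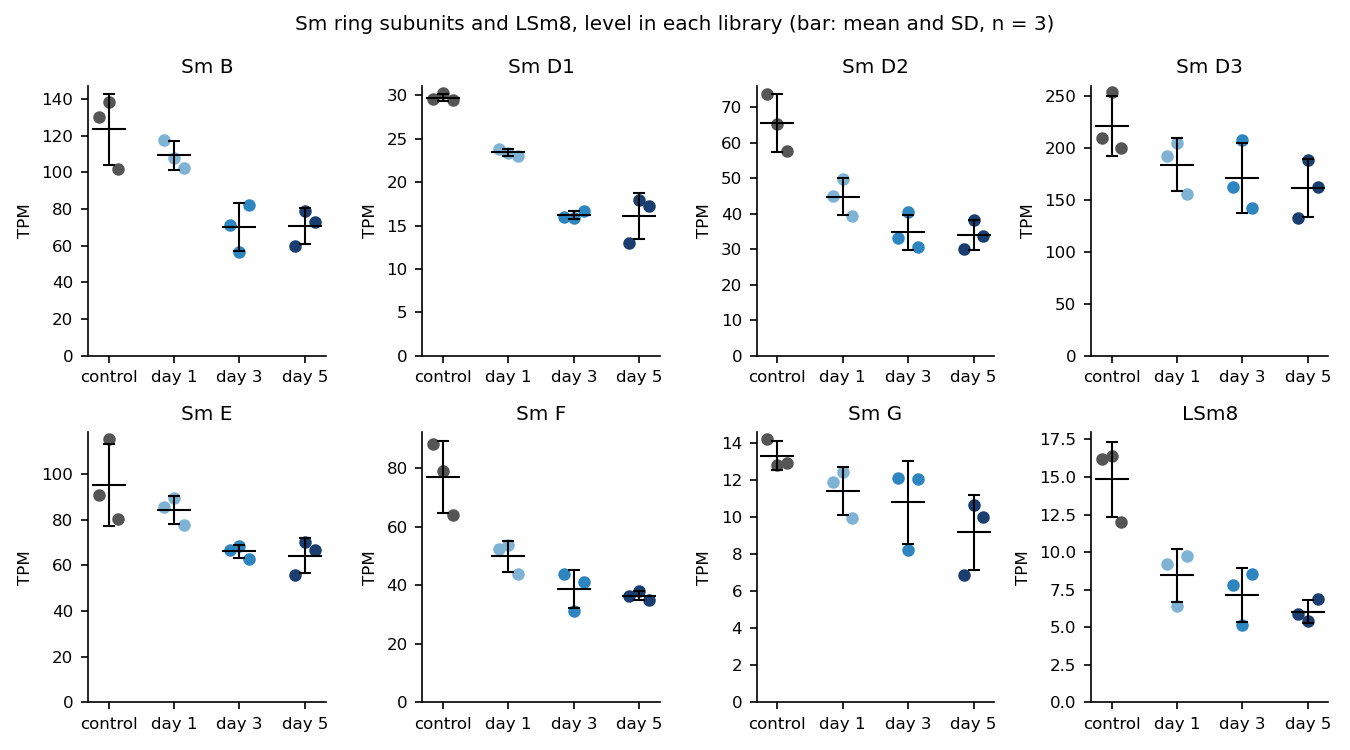
TPM of the main transcript of each of the 7 Sm ring subunits and of LSm8 in each library (points), with the group mean and SD (bars, n = 3); axes start at 0. For all 8 genes the 3 day 5 libraries lie below the 3 control libraries, and Sm F, Sm D1, Sm D2, Sm G and LSm8 are already separated from control at day 1.

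A second, short transcript with an Sm D2 hit (TRINITY_DN29991_c0_g1, 287 bases) had the lowest fitted value of all splicing genes at day 5, at a very low level. It measured 3.38, 3.37 and 1.91 TPM in control, 0.00, 1.10 and 1.17 at day 3 and 0.85, 0.17 and 0.18 at day 5. The groups did not overlap at either time, and the day 5 log2 fold change was -1.48 ± 0.36 (limma adjusted p = 0.0359). Its call was lost under 11 of 21 alternatives, leaving out control replicate 1 or 2, day 1 replicate 1 or any day 5 library included, and its best hit is in a whitefly. It was 1 of 7 Sm transcripts with a mean under 10 TPM, which together summed to 11.5 to 16.2 TPM in the control libraries and 3.02 to 8.42 TPM at day 5 and had no flatworm hit.

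The LSm proteins, which form the ring of U6 (LSm2 to LSm8) or, with LSm1, a ring that acts in cytoplasmic mRNA decay, did not move as a unit. Of 9 LSm transcripts 1 fell at day 5, where 2.23% of all tested genes fell. The median log2 fold change of the 9 was -0.24, and 2 were above zero. LSm8 (LSM8, TRINITY_DN35372_c2_g3, 452 bases), the subunit that sets the nuclear ring apart, measured 16.2, 16.4 and 12.0 TPM in control, 9.19, 6.43 and 9.76 at day 1, 7.78, 5.14 and 8.52 at day 3, and 5.85, 5.41 and 6.88 at day 5. Control was separated from each exposed group. Its log2 fold change was -0.75 ± 0.24 at day 1 (limma adjusted p = 0.336), -0.97 ± 0.24 at day 3 (adjusted p = 0.0505) and -1.16 ± 0.24 at day 5 (adjusted p = 0.0152). The day 5 call was lost without control replicate 1, day 5 replicate 1 or day 5 replicate 2 and under quantile normalization and median-ratio scaling (adjusted p up to 0.0768).

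Among the U6 ring partners of LSm8 only LSm5 stood above zero at day 5. Limma called 0 of the other 8 LSm transcripts, LSm1 included, at any time. Of these 8, 2 had an unadjusted p under 0.05 at day 5, where 16.5% of all tested genes did. LSm6 (TRINITY_DN36573_c0_g6) went from 58.8 ± 5.24 TPM in control to 35.5 ± 5.98 TPM at day 5 (log2 fold change -0.72, limma adjusted p = 0.0691) and LSm3 (TRINITY_DN34324_c1_g4) from 18.4 ± 2.40 to 10.3 ± 1.03 TPM (-0.78, adjusted p = 0.0512), and these were called under 3 and 5 alternatives. Both were named after their values were seen. LSm5 (LSM5, TRINITY_DN28182_c0_g1) stood at 20.9 ± 2.17 TPM in control and 25.1 ± 4.06 at day 5 (0.25, adjusted p = 0.547). LSm1 (TRINITY_DN34306_c0_g2), also named afterwards, stood at 24.1 ± 3.64 and 25.6 ± 4.03 TPM (0.08, adjusted p = 0.890).

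U1 snRNP genes were not called, with a day 5 median of -0.33 (-0.16 without control replicate 3) and 9 of 11 below zero. The U1 C protein, a zinc finger protein that stabilises pairing with the start of the intron, had 2 of the most abundant U1 transcripts. SNRPC (TRINITY_DN38662_c5_g4) stood at 47.7 ± 5.74 TPM in control and 41.8 ± 7.50 at day 5 (log2 fold change -0.20, limma adjusted p = 0.701), with overlapping groups. The U1C transcript TRINITY_DN37467_c2_g9 went from 36.1 ± 4.09 to 25.7 ± 4.81 TPM (-0.49, adjusted p = 0.214), with day 5 wholly below control. At the extremes of the class were 2 short transcripts near 1 TPM with hits to the U1 A protein, which binds a stem-loop of U1 RNA. Snrpa (TRINITY_DN1442_c0_g1, 243 bases) measured 1.03, 2.98 and 1.83 TPM in control and 0.00, 0.00 and 0.25 at day 5 (-1.40, adjusted p = 0.0701), and was called under 3 alternatives. U1A (TRINITY_DN29863_c0_g1, 231 bases) went from 1.02 ± 0.549 to 1.81 ± 1.72 TPM (0.34, adjusted p = 0.775).

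In the U2 and branch point group of 31 genes, 1 fell at day 3 and another at day 5, where 1.19% and 2.23% of all tested genes fell. At day 5, 27 of 31 stood below zero (median -0.36, and -0.22 without control replicate 1). U2AF1 (TRINITY_DN36281_c4_g1, 1066 bases), the small U2AF subunit that contacts the AG at the end of the intron, measured 41.5, 46.3 and 27.7 TPM in control, 44.5, 30.7 and 29.2 at day 1, 21.5, 27.1 and 23.1 at day 3, and 17.7, 21.7 and 21.4 at day 5. Day 1 overlapped control and the later times did not. Its log2 fold change at day 5 was -0.87 ± 0.22 (limma adjusted p = 0.0497), a call that held under 6 of 22 alternatives and was lost by leaving out 10 of the 12 libraries in turn. A second small-subunit gene, U2af38 (TRINITY_DN34200_c3_g2), named after its values were seen, had a log2 fold change of 0.15 (limma adjusted p = 0.795).

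The SF3B6-like gene (TRINITY_DN4146_c0_g1, 432 bases), a hit to the subunit that lies at the branch point, measured 36.9, 46.4 and 41.6 TPM in control, 27.1, 21.3 and 25.3 at day 3 and 32.2, 30.5 and 29.7 at day 5. All exposed libraries were below control, with the lowest at day 3. Limma gave a log2 fold change of -0.74 ± 0.17 at day 3 (limma adjusted p = 0.0428) and -0.42 ± 0.17 at day 5 (adjusted p = 0.234). The day 3 call held under 3 of 22 alternatives and was lost by leaving out any 1 library.

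Other transcripts of SF3A and SF3B, the complexes that clamp U2 to the branch point, were not called and stood on both sides of control. Sf3a2 (TRINITY_DN35543_c2_g1), the most abundant, went from 49.6 ± 4.94 to 40.5 ± 5.89 TPM at day 5 (log2 fold change -0.29, limma adjusted p = 0.466). SF3B4 (TRINITY_DN28614_c1_g1) went from 46.5 ± 3.71 to 29.7 ± 5.98 TPM (-0.64, adjusted p = 0.0926). SF3B5 (TRINITY_DN32524_c2_g1) had the lowest value of the group, from 8.05 ± 1.20 to 3.55 ± 1.40 TPM (-1.03, adjusted p = 0.0546; called under 4 alternatives), with all exposed libraries below control. Above control stood a low SF3B3 transcript (TRINITY_DN33979_c0_g3), at a mean of 0.68 TPM in control and 1.603 TPM at day 5 (0.62, adjusted p = 0.327), and a second, 236-base SF3B5 transcript (TRINITY_DN30069_c0_g1), at 1.11 ± 0.970 and 1.34 ± 0.0693 TPM (0.24, adjusted p = 0.798). Both were named after their values were seen, and the first shares an assembly cluster with another SF3B3 transcript, so its value is uncertain.

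Of the scaffold subunit SF3B1, the largest of the complex, 3 transcripts differed. The long transcript TRINITY_DN36218_c0_g1 (3675 bases), named after its values were seen, went from 15.7 ± 2.45 TPM in control to 9.24 ± 0.829 at day 5 (log2 fold change -0.70, limma adjusted p = 0.0845), and was called under 5 alternatives at day 5. A short one of 239 bases, TRINITY_DN2134_c0_g1, had the highest fitted value of any splicing gene at day 3 and day 5. It measured 1.63, 8.37 and 2.31 TPM in control, 12.4, 12.5 and 9.54 at day 3 and 6.77, 14.3 and 9.96 at day 5. Control replicate 2 overlapped the day 5 libraries, and the log2 fold changes of 1.52 ± 0.42 at day 3 (adjusted p = 0.0928) and 1.33 ± 0.42 at day 5 (adjusted p = 0.107) were not called, but were called under 3 alternatives at each time. The third, TRINITY_DN37467_c2_g11, had a log2 fold change of -0.17 at day 5. Whether these are separate genes or pieces of 1 gene is not given by the assembly, and reads may be split between them.

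Among the 12 U5 and tri-snRNP genes 1 fell at both day 3 and day 5, where 1.19% and 2.23% of all tested genes fell. TXNL4A (TRINITY_DN14613_c0_g1, 550 bases), the small thioredoxin-like U5 protein known as Dim1 in yeast, measured 11.7, 15.3 and 14 TPM in control, 12.3, 10.2 and 9.77 at day 1, 7.43, 7.11 and 6.50 at day 3, and 7.47, 8.63 and 5.96 at day 5. Day 3 and day 5 lay below control without overlap. Limma gave a log2 fold change of -0.87 ± 0.20 at day 3 (limma adjusted p = 0.0436) and -0.82 ± 0.20 at day 5 (adjusted p = 0.0416). These calls held under 4 and 8 of 23 alternatives, and the day 3 call was lost by leaving out any 1 library.

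The large core proteins of the tri-snRNP were not called. PRPF8, at the catalytic centre, had a log2 fold change of -0.35 at day 5 (limma adjusted p = 0.541), EFTUD2, the U5 GTPase, -0.33, and SNRNP200, the helicase that unwinds U4 from U6, -0.32; these 3 were named after their values were seen, as the best known of the class. PPIH (TRINITY_DN29522_c0_g1), a cyclophilin of the tri-snRNP and its most abundant gene, went from 32.0 ± 2.27 to 24.6 ± 2.97 TPM (-0.37, adjusted p = 0.327), with all exposed libraries below control. SNRNP40 (TRINITY_DN23219_c0_g1), a WD-repeat protein of U5, stood at 15.96 ± 3.33 and 16.9 ± 1.92 TPM (0.09, adjusted p = 0.892).

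Prp19 complex and catalytic-step genes had a day 5 median of -0.20, with 19 of 25 below zero (median -0.04 without control replicate 1 or without day 5 replicate 3). The gene rbm22 (TRINITY_DN29883_c0_g1, 1385 bases), encodes an RNA-binding protein of the activated spliceosome and was called under 3 alternatives at day 3 and 1 at day 5. It measured 32.6, 39.0 and 32.4 TPM in control, 38.2, 35.2 and 30.4 at day 1, 19.4, 17.2 and 20.9 at day 3, and 15.8, 23.7 and 25.8 at day 5. Control and day 1 overlapped, and day 3 and day 5 lay below both. The log2 fold change was -0.82 ± 0.21 at day 3 (limma adjusted p = 0.0575) and -0.67 ± 0.21 at day 5 (adjusted p = 0.0939). A second gene with the same Swiss-Prot name, TRINITY_DN30450_c0_g1, had a log2 fold change of 0.23 at day 3 and 0.09 at day 5.

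DHX15 (TRINITY_DN32820_c0_g4), a helicase that takes spent spliceosomes apart and the most abundant gene of the class, stood at 26.6 ± 6.91 TPM in control and 31.0 ± 3.66 at day 5 (log2 fold change 0.23, limma adjusted p = 0.685). PRPF38A (TRINITY_DN37206_c0_g2), a factor needed for activation, went from 7.23 ± 1.79 to 3.59 ± 0.617 TPM (-0.83, adjusted p = 0.0817), with day 3 and day 5 below control, and was called under 3 alternatives. slu7 (TRINITY_DN35297_c6_g3), a factor of the second catalytic step, stood at 1.04 ± 0.257 and 1.72 ± 0.680 TPM (0.40, adjusted p = 0.601).

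Of the 12 SR protein genes 10 stood below zero at day 3 and 10 at day 5. The day 5 median was -0.42 (-0.21 without control replicate 1), and the highest day 5 value was 0.26. SRSF12 (TRINITY_DN34027_c0_g4, 976 bases), whose human namesake acts as a splicing repressor, measured 67.8, 67.5 and 58.0 TPM in control, 47.0, 63.6 and 46.1 at day 1, 36.0, 51.0 and 33.8 at day 3, and 25.4, 33.1 and 31.6 at day 5. The group means descended at each sampling time, day 1 overlapped control, and day 3 and day 5 did not. Limma gave a log2 fold change of -0.31 ± 0.21 at day 1 (limma adjusted p = 0.701), -0.68 ± 0.21 at day 3 (adjusted p = 0.116) and -1.08 ± 0.21 at day 5 (adjusted p = 0.0102). The day 5 call held under 22 of 23 alternatives and was lost without day 5 replicate 1 (adjusted p = 0.0607).

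The related SRSF10 gene (TRINITY_DN29749_c0_g1) measured 129, 121 and 109 TPM in control, 143, 152 and 124 at day 1, 91.9, 97.9 and 85.1 at day 3, and 72.5, 93.2 and 91.5 at day 5. Its day 3 and day 5 libraries lay below control, and its day 1 libraries overlapped control. The log2 fold change was 0.22 at day 1 and -0.48 ± 0.17 at day 5 (limma adjusted p = 0.159), so it was not called. The most abundant SR gene, rsp-3 (TRINITY_DN28631_c0_g1), named for the Caenorhabditis elegans protein of the SRSF1 type, measured 171, 142 and 141 TPM in control, 182, 205 and 163 at day 1, 210, 257 and 197 at day 3, and 170, 199 and 174 at day 5. Day 3 lay wholly above control. Its log2 fold change at day 3 was 0.54 ± 0.18 (limma adjusted p = 0.153). Under quantile normalization the 9 calls at day 3 were 8 falls and 1 rise, and under median-ratio scaling the 7 calls were 6 and 1, where the main analysis had 8 and 0.

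The hnRNP genes held the lowest called value among splicing genes of at least 10 TPM, that of Hnrnpab, and their calls were all in the A/B family, whose members pair RNA recognition motifs with a glycine-rich tail and bind introns, exons and mRNA in transit. Of 16 hnRNP genes 3 fell at day 5 and 2 of them at day 3, where 2.23% and 1.19% of all tested genes fell. Hnrnpab (TRINITY_DN35573_c1_g4, 1940 bases) measured 194, 137 and 151 TPM in control. It measured 72.8, 95.7 and 70.6 TPM at day 1, 68.0, 93.2 and 61.0 at day 3, and 69.0, 75.2 and 74.6 at day 5. Exposed libraries were all below control, and the drop was already present at day 1, with little difference between the 3 times. The day 1 log2 fold change was -0.999 ± 0.20 (limma adjusted p = 0.0806), not called by limma in the main analysis but called under 4 alternatives; the day 3 value was -1.11 ± 0.20 (adjusted p = 0.0111) and the day 5 value -1.11 ± 0.20 (adjusted p = 0.00820). The day 5 call held under all 23 alternatives (adjusted p up to 0.0484), and the day 3 call was lost without control replicate 1 or day 3 replicate 3, without the intensity trend and with only the libraries compared.

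HNRNPA1/A2B1 (TRINITY_DN34602_c0_g3, 1638 bases), with a best hit in Schmidtea mediterranea, measured 214, 178 and 178 TPM in control, 116, 137 and 105 at day 1, 88.3, 134 and 91.1 at day 3, and 92.3, 104 and 87.2 at day 5. The control group lay above all 9 exposed libraries. The log2 fold change was -0.67 ± 0.20 at day 1 (limma adjusted p = 0.296), -0.88 ± 0.20 at day 3 (adjusted p = 0.0345) and -0.998 ± 0.20 at day 5 (adjusted p = 0.0127). The day 5 call was lost without control replicate 1, day 5 replicate 1 or day 5 replicate 3 and without the intensity trend, and the day 3 call held under 12 of 23 alternatives.

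HNRNPA2B1 (TRINITY_DN30066_c0_g1, 1523 bases) measured 127, 84.0 and 92.5 TPM in control, 75.5, 74.3 and 61.2 at day 1, 55.4, 84.5 and 60.2 at day 3, and 56.1, 58.7 and 50.8 at day 5. Day 3 replicate 2 overlapped control, and day 1 and day 5 did not. Its log2 fold change at day 5 was -0.84 ± 0.21 (limma adjusted p = 0.0404), a call that held under 12 of 23 alternatives and was lost without control replicate 1 or 3, day 1 replicate 1 or 2, or any day 5 library. A further A/B-type gene, Hrb87F (TRINITY_DN35574_c2_g1), whose namesake is the fruit fly hnRNP A1 relative, had a log2 fold change of -0.28 (adjusted p = 0.691) and was named after its values were seen.

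**Figure D5:**
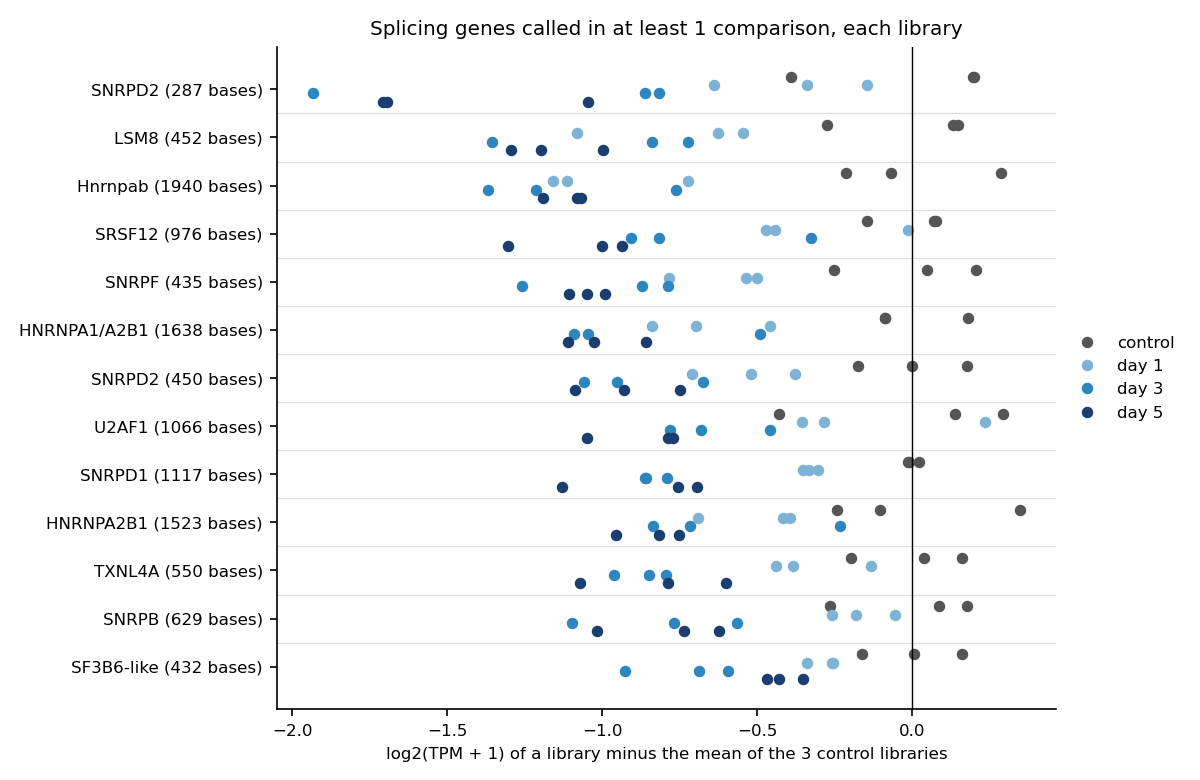
Level of the 13 splicing genes called in at least 1 comparison, as log2(TPM + 1) of each library minus the mean of the 3 control libraries. Colours mark the groups (n = 3 libraries each); day 5 libraries lie to the left of all control libraries for all 13 genes, and the Hnrnpab day 1 libraries already stand as far left as the later ones.

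The other hnRNPs were not called. hnRNP K, a KH-domain protein that binds C-rich RNA, had 5 transcripts with log2 fold changes at day 5 of -0.57, -0.32, 0.00, 0.08 and -0.04. By limma 0 of them was called at any of the 3 times or under an alternative against control. At an unadjusted p under 0.05 stood 1 of the 5 at each time, where 8.83%, 14.5% and 16.5% of all tested genes did. The most abundant, TRINITY_DN32513_c1_g2, stood at 162 ± 29.8 TPM in control and 129 ± 9.90 at day 5 (limma adjusted p = 0.443). The one at -0.57 comes from the same assembly cluster, which leaves the values of both uncertain. Hnrnpul1 (TRINITY_DN37322_c0_g3), of the scaffold-attachment U-like type and chosen after its values were seen, went from 60.1 ± 8.11 TPM in control to 35.2 ± 6.93 at day 3 (-0.76, adjusted p = 0.0719), and was called under 5 alternatives. Rbm46 (TRINITY_DN35319_c0_g1), placed here because its annotation hit is an hnRNP Q, was the highest of the class at day 5 with 0.16 (adjusted p = 0.849).

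Of the 12 remaining genes 0 was called, with 8 of 12 below zero at day 5 and a median of -0.28, which was -0.04 without control replicate 1 and -0.18 without day 5 replicate 3. DDX39B (TRINITY_DN32014_c0_g1), the UAP56 helicase that acts in spliceosome assembly and mRNA export, stood at 125 ± 37.8 TPM in control and 108 ± 15 at day 5 (log2 fold change -0.18, limma adjusted p = 0.789); its 2 highest libraries were control replicate 1 and day 3 replicate 2, at 167 and 171 TPM. snrnp35 (TRINITY_DN36753_c1_g1), a protein of the U11/U12 snRNP of the minor spliceosome, stood at 40.7 ± 5.90 and 45.3 ± 9.39 TPM (0.14, adjusted p = 0.794). fl(2)d (TRINITY_DN31647_c4_g4), named for the fruit fly relative of WTAP, which acts in RNA methylation as well as splicing, was the lowest at -0.45 (adjusted p = 0.503). SR45 (TRINITY_DN37974_c1_g5), a hit to a plant SR protein at 0.507 ± 0.415 TPM in control and 1.55 ± 0.625 at day 5, was the highest at 0.77 (adjusted p = 0.348).

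Differences between exposure times did not pass the threshold in any splicing gene. Limma called 0 of the 142 for day 3 against day 1 (0.179% of all tested genes called; 15 splicing genes and 8.66% of all tested genes at an unadjusted p under 0.05), 0 for day 5 against day 1 (0.49% of all; 23 and 10.2% at an unadjusted p under 0.05) and 0 for day 5 against day 3 (0.0% of all; 1 and 3.08% at an unadjusted p under 0.05). Of the 23 from day 5 against day 1, 20 were lower at day 5. SRSF12 was called for day 5 against day 1 under quantile normalization and median-ratio scaling. In the F test over the 4 groups 8 splicing genes were called, against 1.84% of all tested genes: Hnrnpab, SNRPF, SNRPD1, SNRPD2 (the 450-base transcript), SRSF12, HNRNPA1/A2B1, LSM8 and SNRPB. Since the 3 comparisons with control share their control libraries, the 7 genes called at both day 3 and day 5 are not independent repeats.

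Level and length were described without a test. The 13 called genes had means over the 12 libraries from 1.5 to 127 TPM (median 44.8) and lengths from 287 to 1940 bases (median 629). Among genes of at least 10 TPM, the 20 splicing genes under 700 bases had a median log2 fold change of -0.44 at day 5, the 26 of 700 to 1399 bases -0.29 and the 20 of 1400 bases or more -0.42. For tested genes with an annotation hit in the same bins the medians were -0.29 (901 genes), -0.15 (1381) and -0.12 (923). Among hit genes the median was lower the shorter the bin, and the splicing gene median was below the hit gene median in each bin. Of the 20 splicing genes under 700 bases 3 fell at day 5, against 106 of 901 hit genes (11.8%). In the longer bins 3 of 26 and 3 of 20 splicing genes fell, against 69 of 1381 and 35 of 923 hit genes. At day 5 the share of falls was thus nearer that of hit genes in the short bin than in the longer ones. This order did not hold at day 3, where the short bin was furthest from hit genes. There 4 of 20 short splicing genes fell, against 57 of 901 hit genes. In the middle bin 1 of 26 fell, against 30 of 1381, and in the long bin 2 of 20, against 13 of 923. All these shares rest on few called splicing genes per bin. Splicing genes with a flatworm hit (72) and without one (70) had day 5 medians of -0.31 and -0.33, with 8 and 4 falls. Short transcripts under 400 bases with a mean under 3 TPM made up 19 of the 142, of which 1 was called; the other 123 held 11 falls at day 5 and a median of -0.33. Names repeat: 5 assembly clusters held 11 of the genes, and values of such genes are uncertain where reads could be split.

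Genes of neighbouring steps in RNA processing were drawn from annotation text and hold no splicing gene named above. Over all tested genes 2.23% fell at day 5. Of 10 exon junction and mRNA export genes 1 fell at day 5 (median -0.42), RNA-binding protein 8A, the exon junction protein also called Y14, from 49.1 ± 4.28 to 28.9 ± 3.05 TPM (log2 fold change -0.75, limma adjusted p = 0.0339). Of 28 genes of mRNA 3′ end processing 2 fell at day 5 (median -0.27). These were cleavage and polyadenylation specificity factor subunit 5, which binds upstream of the cleavage site, from 34.3 ± 4.34 to 16.8 ± 2.64 TPM (-0.99, adjusted p = 0.00913), and the nuclear polyadenylate-binding protein 2, from 48.3 ± 9.11 to 25.7 ± 3.54 TPM (-0.88, adjusted p = 0.0421). By limma 0 of 33 splice regulators such as muscleblind, CELF and ELAV proteins (median -0.10), 0 of 14 further splicing helicases (-0.15), 0 of 17 snRNP assembly genes such as the SMN complex (-0.21) and 0 of 5 SR kinases (0.04) were called at day 1, day 3 or day 5. At an unadjusted p under 0.05 at day 5 stood 5, 0, 2 and 1 of these, where 16.5% of all tested genes did.

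Markers of other cells and sources moved over the same libraries. Over all tested genes 1.19% fell at day 3. At day 5, 2.23% of all tested genes fell, 0.681% rose and 15.6% had libraries wholly below control. Of 26 neoblast markers 4 fell at day 3 and 5 at day 5 (median -0.62), and 16 had day 5 libraries wholly below control; the summed level of the list was 678 to 912 TPM in control, 541 to 684 at day 1, 497 to 772 at day 3 and 457 to 505 at day 5. Those called at day 5 were a PCNA gene, an MCM4 gene and 3 ribonucleotide reductase M2 transcripts, which serve DNA replication. Of the last, TRINITY_DN33815_c0_g1 went from 24.0 ± 4.62 to 6.09 ± 0.107 TPM (log2 fold change -1.80, limma adjusted p = 0.000217). Other transcripts of these families were not called. The most abundant PCNA transcript (TRINITY_DN36658_c0_g1) stood at 72.3 ± 31.8 TPM in control and 64.3 ± 12.8 at day 5 (-0.10, limma adjusted p = 0.908). Below zero at day 5 stood 22 of the 26 markers. The piwi genes that define neoblasts were not called at day 5: DjPiwiA stood at 108 TPM in control and 65.0 TPM at day 5 (-0.70, adjusted p = 0.149), DjPiwiB at 112 and 71.0 TPM (-0.62, adjusted p = 0.186) and DjPiwiC at 70.4 and 53.1 TPM (-0.38, adjusted p = 0.464). Of 71 genes with a ciliate hit 32 fell and 3 rose at day 5, and their summed level was 904 to 1242 TPM in control and 511 to 557 at day 5. Of 45 genes with a bovid hit 16 fell, and their sum ran from 15070 to 37800 TPM in control and 9678 to 26320 at day 5. The part of any of these in the splicing gene values was not tested.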

How the data were processed

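Polyadenylated RNA of whole worms was measured in 12 libraries in 4 groups of 3, and the labels gave group and replicate number. Salmon, edgeR, cutadapt and FastQC are listed in the submitters' processing notes, without version, setting or role. The unit of the deposited table was read from its values as TPM: no header states it, and library totals ran from 978610 to 986584. It holds no counts, so a test for normalized values was used and depth per library is unknown. Per-sample columns beyond the 12 libraries numbered 0.

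The 27329 genes that reached 1 TPM in 3 or more libraries entered a single limma fit (3.58.1; R 4.3.3) of 4 groups on log2(TPM + 1), using the intensity-trend option. Benjamini-Hochberg adjustment ran across every tested gene, and 0.05 was the threshold. The splicing genes, their roles and the other lists were chosen from annotation text with earlier results of these data known. Named genes are every called splicing gene, in each role the 2 with the highest mean and those with the highest and lowest day 5 value; others are marked as named after their values were seen, and include the gene TRINITY_DN30450_c0_g1, the third SF3B1 transcript, the other hnRNP K transcripts and the genes of the other lists. The main transcript of an Sm subunit is the one with the highest mean. The fit was tested on simulated data for 27329 genes: 58 of 100 genes lowered by 1 and 100 of 100 lowered by 2 on the log2 scale at day 5 were called, as were 11 unchanged genes. The simulated noise was independent between libraries, with a spread set by level alone and no shifts of whole libraries. Only genes with a mean log2 value of at least 2 were lowered. These rates therefore need not hold for the real libraries. No sequence or genome was used.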

Additional observations from a re-analysis of the deposited data

How the results depend on the processing

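Calls among the 142 splicing genes depended on libraries and on the variance model, while no called gene changed direction under any of the 23 alternatives. At day 5, where 12 genes were called, rescaling without the 2 most abundant transcripts gave 6, limma without an intensity trend 5 and a fit of only the libraries compared 7. At day 3, where 8 were called, the same settings gave 3, 0 and 0, and leaving out the pair of libraries with the highest medians, an alternative added after the data were seen, gave 2. At day 1, in place of 0, quantile normalization and median-ratio scaling each gave 2 and rescaling gave 1. For day 5 against day 1, quantile normalization and median-ratio scaling each gave 1 in place of 0. The F test, with 8 calls, gave 5 under median-ratio scaling, 2 under rescaling, 0 without the trend and 1 without the pair. The day 5 median of -0.32 became -0.20 under quantile normalization, -0.21 under median-ratio scaling, -0.19 under rescaling, -0.38 with a pseudocount of 0.1 and -0.20 without the pair. Leaving out single libraries gave 0 to 1 calls at day 1, 0 (without control replicate 1) to 7 at day 3, 2 (without day 5 replicate 1) to 17 (without day 3 replicate 2) at day 5, with 3 without control replicate 1, and 0 (without control replicate 1) to 7 in the F test, and day 5 medians from -0.41 to -0.20. Fewer libraries leave fewer residual degrees of freedom; the cause of the other changes was not tested.

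Replicate numbers did not pair the libraries: over 18 pairs of libraries with the same number in different groups the correlation of their deviations from group means ran from -0.148 to 0.15, and over 36 pairs with different numbers from -0.141 to 0.128. With the replicate number as a block, 0 splicing genes were called at day 1, 6 at day 3 (5 lower and 1 higher), 10 at day 5 (9 lower and 1 higher, the higher one in the U2 group at both times) and 7 in the F test, and the day 5 median was -0.32.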
